A study of Danio rerio with 16 samples.

Results

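The genes described here are 10 genes of cartilage and bone other than collagens, taken from a table of 32513 rows by gene symbol: sox9a, runx2b, sp7, matn1, acana, cnmd, epyc, spp1, bglap and sparc. For 9 of them the table's symbol matched. The row of cnmd is listed under its older symbol lect1 and was matched by its gene ID, 791772, to the name cnmd in NCBI's RefSeq genes of the assembly GRCz12tu, from which names alone were taken. All 10 rows were high enough to be tested.

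The study asked whether radiofrequency radiation (RFR), in the range used for 5G telephony, changes which genes are expressed in zebrafish (Danio rerio) embryos. Total RNA of whole embryos was sequenced in 16 libraries, 4 in each of 4 groups. Controls received no radiation, and RFR embryos were irradiated at 3.5 GHz with a power of about 30 dBm between 6 and 48 hours post fertilization (hpf). Each treatment was collected at 48 hpf, when the exposure ended, and at 120 hpf, 72 h later. The labels give no strain, no number of embryos per library and no clutch, so p-values measure the spread among these libraries alone, and that spread may be technical.

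Zebrafish cartilage forms from condensed mesenchyme in which Sox9 factors switch on the matrix genes, and chondrocytes then fill the tissue with collagens, large proteoglycans such as aggrecan, and adaptor proteins such as matrilins. Bone is laid down by osteoblasts, whose fate depends on Runx2 and then on Sp7 (osterix), and which secrete collagen together with acidic and mineral-binding proteins such as osteopontin, osteocalcin and osteonectin. Much of the pharyngeal skeleton and the first bones appear between the stages sampled here. RNA of whole embryos does not tell fewer cells of a type from less RNA per cell, and this holds for every value below.

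Depth after the authors' filter was 39603976 to 49232542 reads per library, and the mapped share was 69.37 to 71.78% in libraries of 48 hpf and 66.19 to 67.58% in those of 120 hpf. Control 120 hpf replicate 1 had an rRNA share of 3.2%, against 0.15 to 0.3% in the other libraries. Markers of neurons, muscle, blood, skin, liver and lens were looked up to check the label of whole embryos, and 0 of these 8 genes were listed at 0 throughout any group. Values are FPKM, that is, fragments per length of transcript and per size of library, so levels of different genes may be set side by side. Differences are on the log2(FPKM + 0.5) scale, where changes at low level appear smaller than they are. They were tested with limma over 23026 rows with Benjamini-Hochberg adjustment, and "rose" or "fell" is used for an adjusted p under 0.05.

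The 10 genes spanned a wide range of levels, and their order differed between the stages. sparc, which encodes osteonectin, a collagen- and calcium-binding glycoprotein made in many connective tissues as well as in bone, was highest in every group. Its mean was 505.0 ± 23.3 FPKM in controls at 48 hpf (SD, n = 4), above 99.2% of all tested rows in that group. At 48 hpf it was followed by epyc and cnmd, whose libraries overlapped, and then by sox9a, whose libraries lay below both. The other 6 genes had means under 5 FPKM at that stage. At 120 hpf matn1 had moved to the place behind sparc, with a mean of 121.8 ± 25.7 FPKM in controls, overlapping epyc. spp1 and acana came after sox9a, and runx2b, bglap and sp7 had the lowest means, from 0.625 to 0.97 FPKM in controls.

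**Figure D1:**
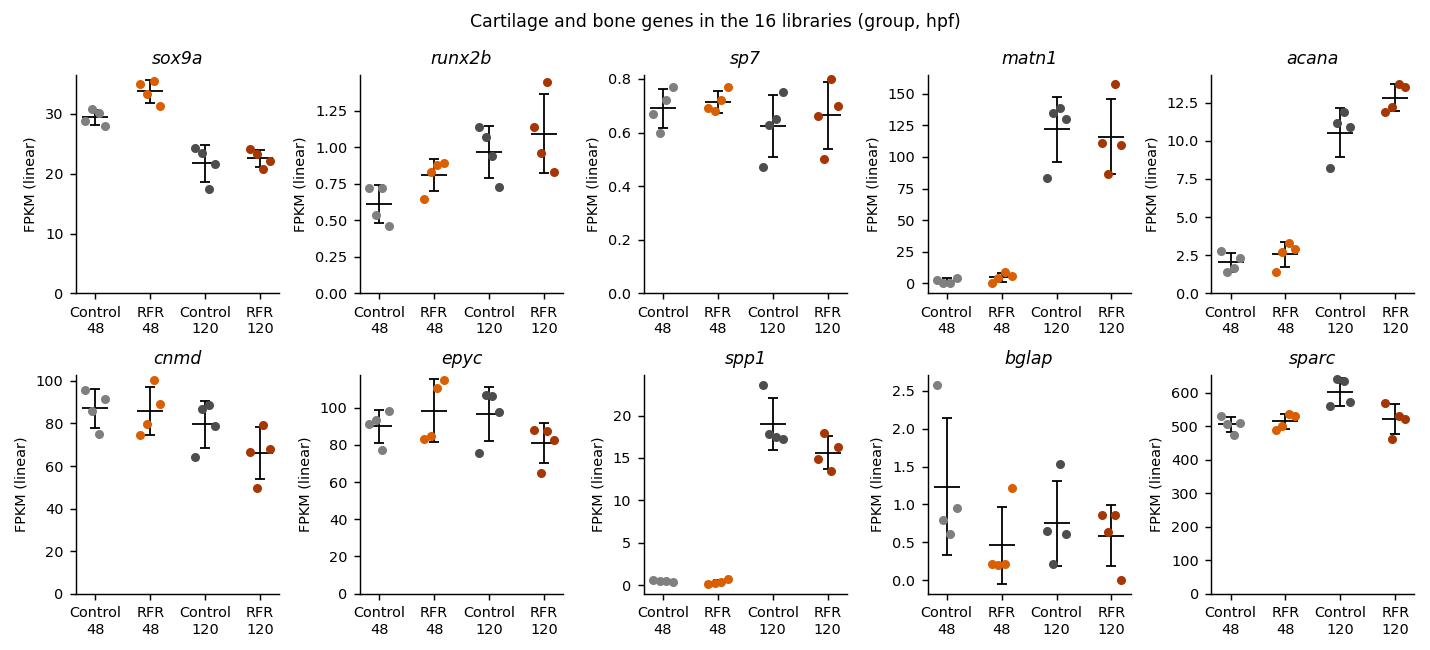
FPKM (linear axes, a scale of its own for each gene) in each of the 16 libraries, by treatment and stage; points are libraries, the long bar is the group mean and the whiskers are the SD. The libraries of matn1, acana and spp1 at 120 hpf stand clear of those at 48 hpf, and within a stage the control and RFR libraries overlap except for sox9a at 48 hpf and acana at 120 hpf.

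The transcription factors came first in the comparison of RFR with control embryos at 48 hpf. sox9a, an HMG-box factor required for cartilage in zebrafish, stood at 28.77, 30.74, 30.17 and 27.93 FPKM in replicates 1 to 4 of the controls and at 34.98, 33.38, 35.48 and 31.3 FPKM in RFR replicates 1 to 4. All 4 RFR libraries lay above all 4 controls. The log2 difference was 0.20 ± 0.0895 (SE), or 1.15-fold, with an unadjusted p of 0.0432 and an adjusted p of 0.504 (limma), so the difference did not pass. sox9a was 1 of the 10 genes without overlap between groups, where 4.27% of all tested rows had none.

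runx2b, a Runt-domain factor of the osteoblast lineage, lay at 0.72, 0.54, 0.72 and 0.46 FPKM in the controls and at 0.65, 0.83, 0.88 and 0.89 FPKM after RFR at 48 hpf. In 3 of 4 RFR libraries it was above every control, and replicate 1 lay among the controls (log2 difference 0.25 ± 0.147, adjusted p = 0.657, limma). sp7, the zinc finger factor that acts after Runx2 in osteoblasts, ranged from 0.6 to 0.77 FPKM in controls and from 0.68 to 0.77 FPKM after RFR. Its groups overlapped, and the difference of 0.03 ± 0.123 had a 95% interval from -0.23 to 0.29.

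Among the cartilage matrix genes, matn1 had the largest difference at 48 hpf and the widest spread. matn1 encodes matrilin-1, an adaptor protein of the cartilage matrix, and stood at 2.74, 0.33, 0.25 and 4.42 FPKM in the controls and at 0.24, 4.38, 8.7 and 5.85 FPKM after RFR. RFR replicate 1 was the lowest library of all, and RFR replicates 3 and 4 were above every control. The log2 difference of 1.1 ± 0.672 did not pass (adjusted p = 0.663, limma). Without RFR 48 hpf replicate 1 it was 1.89 (adjusted p = 0.0802), and the range of its adjusted p over all settings that left out a single library was 0.0802 to 0.958. All groups share 1 estimate of spread in these fits. The SDs of matn1 in controls and after RFR were 1.37 and 1.62 log2 units at 48 hpf, and 0.34 and 0.35 at 120 hpf. The SE of 0.672 and its p thus understate the spread at 48 hpf.

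acana encodes aggrecan, the large chondroitin sulphate proteoglycan of cartilage, and followed the same libraries. It stood at 2.79, 1.38, 1.68 and 2.3 FPKM in the controls and at 1.39, 2.7, 3.27 and 2.9 FPKM after RFR at 48 hpf. The groups overlapped, with RFR replicate 1 beside the lowest control (log2 difference 0.26 ± 0.201, adjusted p = 0.762, limma; without RFR replicate 1, 0.48 and 0.180).

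The libraries low in matn1 and acana at 48 hpf were those farthest from 120 hpf on the axis that separates the stages. On the first principal component, which held 83.1% of the variance and ran from 48 to 120 hpf, control replicates 2 and 3 scored -101.5 and -97.72 and RFR replicate 1 scored -100.5. The other controls scored -92.62 and -91.16, and the other RFR libraries -86.41, -76.93 and -86.75. The part of this position in the differences of matn1 and acana was not tested.

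cnmd and epyc were measured at much higher levels and differed little at 48 hpf. cnmd encodes chondromodulin, a membrane glycoprotein of cartilage, and lay at 95.91, 85.93, 74.91 and 91.68 FPKM in controls and 74.45, 79.97, 100.32 and 89.21 FPKM after RFR. epyc encodes epiphycan, a small leucine-rich proteoglycan of cartilage, and lay at 91.22, 93.33, 77.51 and 98 FPKM in controls and 82.93, 84.84, 110.79 and 114.86 FPKM after RFR. Both pairs of groups overlapped, with log2 differences of -0.02 ± 0.138 for cnmd and 0.12 ± 0.1365 for epyc.

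Of the bone matrix genes, bglap had the largest difference at 48 hpf. bglap encodes osteocalcin, a vitamin K-dependent protein that binds bone mineral, and stood at 2.58, 0.8, 0.61 and 0.95 FPKM in the controls and at 0.21, 0.2, 0.21 and 1.22 FPKM after RFR. RFR replicates 1 to 3 lay below every control and RFR replicate 4 above 3 of them. The log2 difference of -0.85 ± 0.413 did not pass at an adjusted p of 0.539 (limma, 0.0558 before adjustment). Values near 0.2 FPKM recur for bglap in 4 libraries and are the smallest above 0, so at this level single steps of the measurement are of the size of the RFR values themselves.

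spp1 and sparc differed little at 48 hpf. spp1 encodes osteopontin, an acidic phosphoprotein of bone matrix, and ranged from 0.33 to 0.59 FPKM in controls and from 0.17 to 0.67 FPKM after RFR. sparc lay at 530.3, 505.1, 474.08 and 510.54 FPKM in the controls and at 487.87, 501.82, 535.93 and 530.98 FPKM after RFR, and the groups overlapped. Its log2 difference of 0.03 ± 0.072 had a 95% interval from -0.13 to 0.18.

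In all, 0 of the 10 genes passed the test at 48 hpf, where 0.00434% of all tested rows did (1 row, with 2180 rows at an unadjusted p under 0.05). The number of rows that passed was 389 without RFR 48 hpf replicate 1, and 0 of the 10 genes were among them. The difference was positive for 7 of the 10 genes, with a median of 0.07, while 60.5% of all tested rows were positive, with a median of 0.04.

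At 120 hpf, 72 h after the end of the exposure, the matrix genes of higher level had lower means in RFR embryos, and none of these differences passed the test. sparc stood at 559.28, 640.11, 635.9 and 570.67 FPKM in the controls and at 568.39, 461.49, 530.65 and 520.99 FPKM after RFR. In 3 of 4 RFR libraries it was below every control, and replicate 1 lay among them. The log2 difference of -0.21 ± 0.072, or 1.16-fold lower, had an unadjusted p of 0.0103 and an adjusted p of 1 (limma).

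cnmd lay at 64.27, 86.56, 88.72 and 78.88 FPKM in the controls and at 66.69, 49.68, 79.31 and 67.88 FPKM after RFR at 120 hpf. epyc lay at 75.81, 106.63, 106.31 and 97.85 FPKM in the controls and at 88.24, 64.99, 87.61 and 82.74 FPKM after RFR. RFR replicate 2 was the lowest library for both, control replicate 1 was the lowest control for both, and the groups overlapped. The log2 differences were -0.28 ± 0.138 for cnmd and -0.25 ± 0.1365 for epyc, with unadjusted p of 0.0593 and 0.0828 and an adjusted p of 1 for each (limma).

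Aggrecan went the other way at 120 hpf. acana stood at 8.19, 11.13, 11.88 and 10.87 FPKM in the controls and at 11.91, 12.22, 13.69 and 13.49 FPKM after RFR. All 4 RFR libraries lay above all 4 controls, the lowest RFR library by a narrow margin. It was 1 of the 10 genes without overlap, against 2.11% of all tested rows, and its log2 difference of 0.28 ± 0.201 did not pass (adjusted p = 1, limma). All groups share 1 estimate of spread, so this SE also carries the wider spread of acana at 48 hpf. Its SDs in controls and after RFR were 0.36 and 0.44 log2 units at 48 hpf, and 0.23 and 0.10 at 120 hpf.

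matn1 was high in every library at 120 hpf. It stood at 83.6, 134.52, 139.05 and 130.12 FPKM in the controls and at 110.88, 86.57, 157.32 and 109.38 FPKM after RFR, with overlap. The log2 difference was -0.07 ± 0.672, and the SE carries the spread of the 48 hpf libraries, since all groups share 1 estimate. With the 120 hpf groups alone the SE was 0.205.

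spp1 stood at 23.63, 17.79, 17.45 and 17.23 FPKM in the controls and at 14.82, 17.92, 13.44 and 16.34 FPKM after RFR at 120 hpf. In 3 of 4 RFR libraries it was below every control, and RFR replicate 2 lay among them (log2 difference -0.27 ± 0.157, adjusted p = 1, limma). bglap lay at 0.65, 0.21, 1.54 and 0.61 FPKM in the controls and at 0.86, 0.63 and 0.86 FPKM in RFR replicates 1 to 3, and was listed at 0 in RFR replicate 4. Its groups overlapped.

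The transcription factors overlapped between control and RFR embryos at 120 hpf. sox9a lay at 24.24, 23.52, 17.49 and 21.59 FPKM in the controls and at 24.1, 23.3, 20.78 and 22.08 FPKM after RFR. runx2b ranged from 0.73 to 1.14 FPKM in controls and from 0.83 to 1.45 FPKM after RFR. sp7 ranged from 0.47 to 0.75 and from 0.5 to 0.8 FPKM. The log2 differences of these 3 genes were 0.06 ± 0.0895, 0.11 ± 0.147 and 0.05 ± 0.123.

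In all, 0 of the 10 genes passed at 120 hpf, where 0.0% of all tested rows did (0 of 23026 in limma, with 952 at an unadjusted p under 0.05). The difference was negative for 6 of the 10 genes, with a median of -0.14 against a median near 0 over all tested rows.

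**Figure D2:**
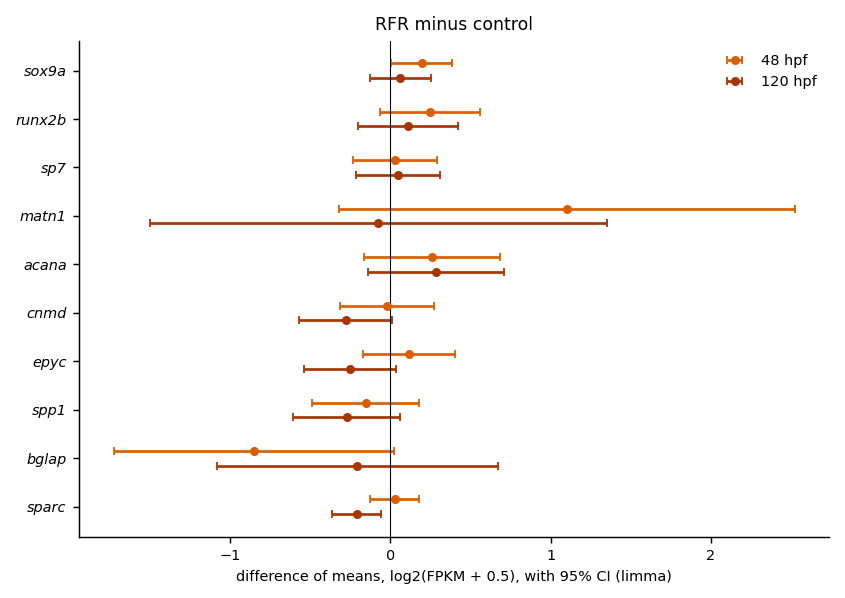
Difference of RFR and control means on the log2(FPKM + 0.5) scale for each gene at 48 and 120 hpf, with limma's 95% confidence interval; the line at 0 marks equal means. The intervals of sox9a at 48 hpf and of sparc at 120 hpf leave out 0 before adjustment, and those of matn1 and bglap are the widest.

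Whether the RFR effect itself differed between the stages was tested as an interaction, and 0 of the 10 genes passed at the adjusted p of limma, where 0.0% of all tested rows did. Before adjustment 1575 rows were under 0.05. For sparc, nearest to the threshold among the 10, the effect was lower by 0.24 ± 0.102 log2 units at 120 than at 48 hpf, at an adjusted p of 0.682 (limma, 0.0347 before adjustment). For epyc the effect was lower by 0.37 ± 0.193 and for matn1 by 1.18 ± 0.950. The median over the 10 genes was -0.13, against -0.05 over all tested rows.

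Between the stages, matn1, spp1 and acana rose and sox9a fell in both treatments. In controls 6 of the 10 genes passed between 48 and 120 hpf, where 66.1% of all tested rows did: 5 rose, against 38.3% of rows, and 1 fell, against 27.9%. After RFR 5 of 10 passed, against 65.3% of rows: 3 rose, against 36.1%, and 2 fell, against 29.2%. The share of the 10 genes that passed was thus near or below the background.

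matn1 rose from a mean of 1.94 ± 2.02 to 121.8 ± 25.7 FPKM in controls (SD, n = 4 each), a log2 difference of 6.08 ± 0.672 (SE; adjusted p = 6.52e-07, limma). After RFR the log2 difference was 4.90 ± 0.672. spp1 rose from 0.455 ± 0.1075 to 19.0 ± 3.08 FPKM in controls, by 4.35 ± 0.157 log2 units (adjusted p = 6.31e-13), and by 4.23 ± 0.157 after RFR. acana rose from 2.04 ± 0.631 to 10.5 ± 1.61 FPKM in controls, by 2.14 ± 0.201 (adjusted p = 9.66e-08), and by 2.16 ± 0.201 after RFR. These are an adaptor and a proteoglycan of cartilage and an acidic protein of bone, and no library of the later stage overlapped the earlier one for any of the 3.

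sox9a fell in both treatments, from 29.4 ± 1.28 to 21.7 ± 3.03 FPKM in controls (log2 difference -0.44 ± 0.0895, adjusted p = 0.000403, limma) and by 0.57 ± 0.0895 log2 units after RFR. In RNA of whole embryos sox9a was thus lower at the stage where matn1 and acana were higher. The level of sox9a within cartilage was not measured. sox9a, matn1, acana and spp1 were the 4 genes that passed in the same direction in both treatments. Of all tested rows 66.1% passed in controls and 65.3% after RFR, and the share that passed in both was not counted.

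3 genes passed in a single treatment, and for none of them did the difference between treatments pass. The share of all tested rows that passed in a single treatment was not counted. runx2b rose in controls, from 0.61 ± 0.131 to 0.97 ± 0.18 FPKM (log2 difference 0.40 ± 0.147, adjusted p = 0.0235, limma), and its difference after RFR was 0.27 (adjusted p = 0.118). sparc rose in controls, from 505.0 ± 23.3 to 601.5 ± 42.5 FPKM (0.25 ± 0.072, adjusted p = 0.00602), and its difference after RFR was 0.01. cnmd fell after RFR, from 86.0 ± 11.3 to 65.9 ± 12.2 FPKM (-0.39 ± 0.138, adjusted p = 0.0197), with overlapping libraries, and its difference in controls was -0.13. Each of these 3 calls was lost in at least 1 fit that left out a library or changed the scaling. epyc, sp7 and bglap did not pass in either treatment, with log2 differences of 0.09, -0.08 and -0.45 in controls and -0.28, -0.07 and 0.20 after RFR. The difference of epyc after RFR passed under median-ratio scaling (-0.33, adjusted p = 0.0445, limma) and without RFR 48 hpf replicate 1 (-0.35, adjusted p = 0.0436).

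The scaling of the libraries bears on the small developmental changes. Quantile normalization moved the median developmental difference of all tested rows in controls from 0.12 to -0.14, and the share of higher calls among rows that passed from 57.9 to 41.6%. After RFR that share moved from 55.2 to 41.7%. Under it the sign turned for runx2b in controls (-0.13) and sparc lost its call (0.08, adjusted p = 0.372), while sp7 (-0.63) and bglap (-0.97) fell. After RFR sp7 fell under it as well (-0.55, adjusted p = 0.00199, limma). The rises of matn1, spp1 and acana and the fall of sox9a passed under every setting in both treatments.

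**Figure D3:**
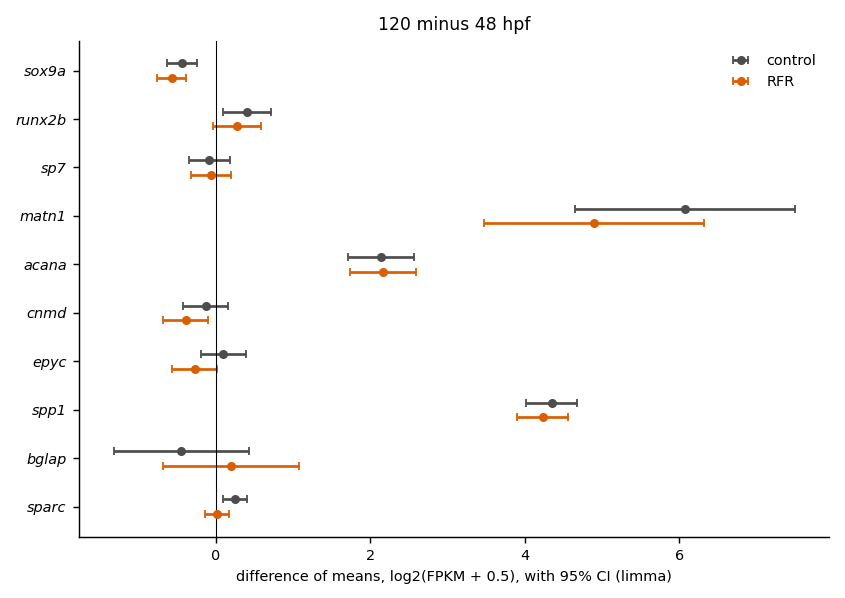
Difference between 120 and 48 hpf on the log2(FPKM + 0.5) scale in controls and after RFR for each gene, with limma's 95% confidence interval. matn1, spp1 and acana lie far to the right of 0 in both treatments, sox9a lies to the left, and the intervals of the treatments overlap for every gene.

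The genes differed in how far libraries of a group lay apart. The residual SD within groups was 1.09 log2 units for matn1, larger than for 99.6% of all tested rows, and 0.652 for bglap, larger than for 97.0%. For sparc it was 0.0932, larger than for 4.92% of rows. Some libraries stood low for several genes at once: RFR 48 hpf replicate 1 had the lowest value of its group for 7 of the 10 genes, control 120 hpf replicate 1 for 6, and control 48 hpf replicate 3 and RFR 120 hpf replicate 2 for 5 each.

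Which genes varied together was described by the correlation of the values over the 16 libraries after each stage mean was subtracted. The libraries share stage and treatment groups and the scaling to library size, so the coefficients are descriptions. Among the 10 genes, cnmd and epyc were most alike (Pearson r = 0.891, n = 16), followed by matn1 and acana (0.864), cnmd and sparc (0.862) and epyc and sparc (0.858). sox9a was not like the cartilage matrix genes by this measure in whole embryos. Its r was -0.066 to matn1, -0.115 to acana, -0.442 to cnmd and -0.274 to epyc.

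Over all rows with a symbol that averaged 1 FPKM or more, col10a1a, which encodes collagen X, was most like matn1 (r = 0.95, n = 16), followed by emilin3a (0.948) and si:dkey-57a22.15 (0.944). col10a1a stood at 16.84, 6.28, 11.61 and 21.62 FPKM in controls at 48 hpf and at 5.81, 26.61, 36.64 and 31.36 FPKM after RFR. Its low libraries, control replicates 2 and 3 and RFR replicate 1, were the low libraries of matn1. emilin3a had the same 3 libraries lowest at 48 hpf, where it ranged from 2.73 to 10.28 FPKM. At 120 hpf emilin3a was lower, at 0.93 to 1.58 FPKM. Most of the spread of matn1 lay at 48 hpf, with SDs of 1.37 and 1.62 log2 units in controls and after RFR. At 120 hpf they were 0.34 and 0.35. In RFR 120 hpf replicate 3, matn1 and col10a1a were at their highest, 157.32 and 150.86 FPKM. There si:dkey-57a22.15 was at its lowest of that stage, 71.47 FPKM, so its likeness to matn1 did not hold at 120 hpf.

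The rows most like sparc were capn3b (r = 0.927, n = 16), and2 (0.917) and sh3pxd2ab (0.912). and2 encodes an actinodin, a structural protein of the actinotrichia that support the fin fold. Those most like sp7 were tmem223 (0.917), zgc:77929 (0.897) and dnmt3bb.1 (0.891). sp7 lay between 0.47 and 0.8 FPKM in every library, with a residual SD of 0.121 log2 units, so depth limits the precision of its deviations. All rows named for likeness are the highest of the rows compared, which favours high coefficients.

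**Figure D4:**
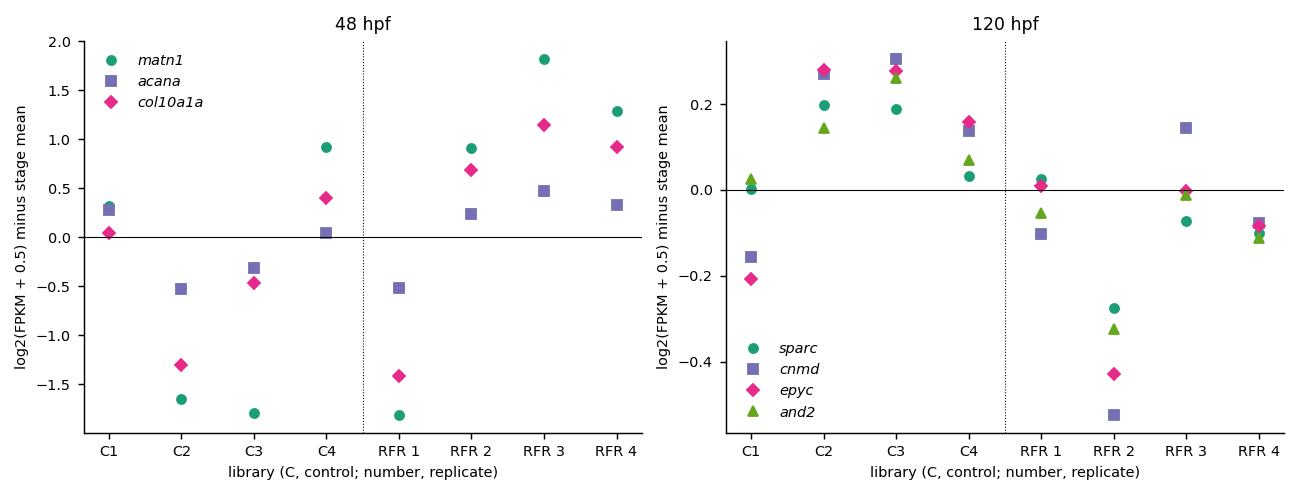
Left, log2(FPKM + 0.5) minus the mean of the stage for matn1, acana and col10a1a in the 8 libraries at 48 hpf; right, the same for sparc, cnmd, epyc and and2 at 120 hpf. At 48 hpf control replicates 2 and 3 and RFR replicate 1 lie low for all 3 genes, and at 120 hpf RFR replicate 2 is lowest for all 4.

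The wider programmes of cartilage and bone were described with lists of other genes, chosen with earlier results of these data known, and 0 genes of any list passed in either RFR comparison. At 48 hpf, 15 of 18 tested regulators of chondrocytes had a positive difference, with a median of 0.14, as did 60.5% of all tested rows, with a median of 0.04. The smallest p belonged to foxc1b, a forkhead factor, at 20.5 ± 0.456 FPKM in controls and 26.5 ± 1.36 FPKM after RFR (adjusted p = 0.250, limma). sox5, a partner of Sox9, lay at 21.5 ± 0.927 and 25.9 ± 1.14 FPKM (adjusted p = 0.250). In both genes all RFR libraries were above all controls, and 4.27% of all tested rows had no overlap at 48 hpf. Both were named for the smallest p of their list, which favours separated groups. Both passed without RFR 48 hpf replicate 1, at adjusted p of 0.0346 and 0.0494 (limma), a setting under which 389 rows passed. Neither passed under any other setting. With other single libraries left out the adjusted p reached 0.594 for foxc1b and 0.609 for sox5 (limma).

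Other cartilage matrix genes were positive in 22 of 31 cases at 48 hpf, with a median of 0.05, beside 60.5% of all tested rows and their median of 0.04. The smallest p was that of mia, which encodes a small secreted protein of cartilage, at 8.33 ± 1.18 FPKM in controls and 5.64 ± 1.16 FPKM after RFR, without overlap (adjusted p = 0.305, limma). hapln1a (75.8 ± 2.66 and 81.9 ± 0.773 FPKM) and dcn (93.4 ± 2.61 and 99.3 ± 1.585 FPKM) of this list were higher without overlap (adjusted p = 0.831 and 0.690, limma). Regulators of osteoblasts were positive in 14 of 20 cases. atf4a, a leucine zipper factor of the stress response and of osteoblasts, went against this majority. It lay at 235.1 ± 12.4 FPKM in controls and 207.1 ± 2.84 FPKM after RFR, without overlap (adjusted p = 0.343, limma). twist2 of the same list was higher without overlap, at 6.675 ± 0.319 and 8.18 ± 0.972 FPKM (adjusted p = 0.402, limma). Genes of bone matrix and mineralization were positive in 16 of 23 cases and skeletal collagens in 18 of 19, with medians of 0.07 and 0.06. sparcl1 of the bone matrix list was higher without overlap, at 10.6 ± 0.503 and 12.7 ± 0.736 FPKM (adjusted p = 0.366, limma). The median over all tested rows was 0.0009 under quantile normalization and -0.0039 under median-ratio scaling. The counts of the lists were not repeated under these 2 settings and may depend on the scaling. The osteoclast markers were split, with 6 positive and 6 negative and a median of -0.0022. Of these, acp5a, which encodes tartrate-resistant acid phosphatase, lay at 109.35, 76.84, 51.85 and 48.95 FPKM in the controls and at 46.87, 22.9, 33.89 and 27.78 FPKM after RFR (log2 difference -1.09 ± 0.320, adjusted p = 0.289). All 4 RFR libraries were below all 4 controls. As for mia, hapln1a, dcn, atf4a, twist2 and sparcl1, this is to be read beside the 4.27% of all tested rows without overlap at 48 hpf. tcirg1a, which encodes a subunit of the proton pump that osteoclasts use, differed in the other direction. It lay at 1.97 ± 0.287 FPKM in controls and 2.71 ± 0.622 FPKM after RFR (log2 difference 0.37 ± 0.140, adjusted p = 0.394, limma). From 48 to 120 hpf in controls, 5 of the 12 osteoclast markers rose and 3 fell, beside 38.3% and 27.9% of all tested rows. acp5a fell from 71.75 ± 28.0 to 0.94 ± 0.482 FPKM. acp5b rose from 0.3625 ± 0.214 to 2.54 ± 0.781 FPKM, and tnfrsf11a from 0.965 ± 0.244 to 4.61 ± 0.608 FPKM. Which cells held the acp5a RNA at 48 hpf was not tested.

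At 120 hpf 26 of 31 other cartilage matrix genes had a negative difference, with a median of -0.15, as did 18 of 19 skeletal collagens, with a median of -0.19. Of all tested rows 48.9% were positive, with a median near 0. Genes of a list can vary together over the libraries, so these counts are not made of independent results. On the first principal component RFR replicate 2 scored highest at 120 hpf, at 98.94, followed by RFR replicate 3 at 94.58. The part of this position in the counts was not tested. dcn and fmoda, which encode the small leucine-rich proteoglycans decorin and fibromodulin, had the smallest p among the cartilage matrix genes, with differences of -0.17 ± 0.057 and -0.21 ± 0.080 (adjusted p = 1 for each, limma). col11a1b, a chain of the minor cartilage collagen XI, had the smallest p among the collagens, at 23.0 ± 1.52 FPKM in controls and 18.4 ± 1.52 FPKM after RFR (adjusted p = 0.909). The lowest library of the stage was RFR replicate 2 for fmoda (47.11 FPKM) and RFR replicate 3 for dcn (58.27 FPKM) and col11a1b (17.02 FPKM). Genes of bone matrix and mineralization were split, with 10 positive and 13 negative and a median of -0.02. Among them postnb, which encodes a periostin, lay at 161 ± 9.13 and 133 ± 15.1 FPKM without overlap (adjusted p = 0.927), while scpp9, a secreted calcium-binding phosphoprotein, was higher in the mean after RFR, at 17.5 ± 6.62 and 26.6 ± 6.61 FPKM with overlap (adjusted p = 1). Regulators were nearer to 0, with medians of -0.05 for chondrocytes and -0.04 for osteoblasts. The lack of overlap of postnb is to be read beside the 2.11% of all tested rows without overlap at 120 hpf.

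Markers of other tissues that hold such matrix were looked at in the same comparison. The 5 matched fin fold markers summed to 731.9 to 798.6 FPKM in control and 533.8 to 678.2 FPKM in RFR libraries at 120 hpf, and 4 of 5 were negative, with a median of -0.25. Their actinodins and1 and and3, named for the smallest p of the list, did not overlap between the groups. Their log2 differences were -0.40 and -0.28 (adjusted p = 0.522 and 0.602, limma). The actinodin and2 lay at 343.81 to 404.92 FPKM in controls and at 269.91 to 335.02 FPKM after RFR, also without overlap. Of all tested rows 2.11% had no overlap at 120 hpf. The 5 tendon markers summed to 77.07 to 81.71 and to 68.43 to 78.35 FPKM, all 5 negative. The 8 notochord markers summed to 120.6 to 149.8 and to 116.7 to 133.4 FPKM, with 3 negative. These counts are to be read beside all tested rows, of which 48.9% were positive. No marker of these 3 lists was listed at 0 throughout a group, and their part in the values of sparc, cnmd and epyc was not tested.

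**Figure D5:**
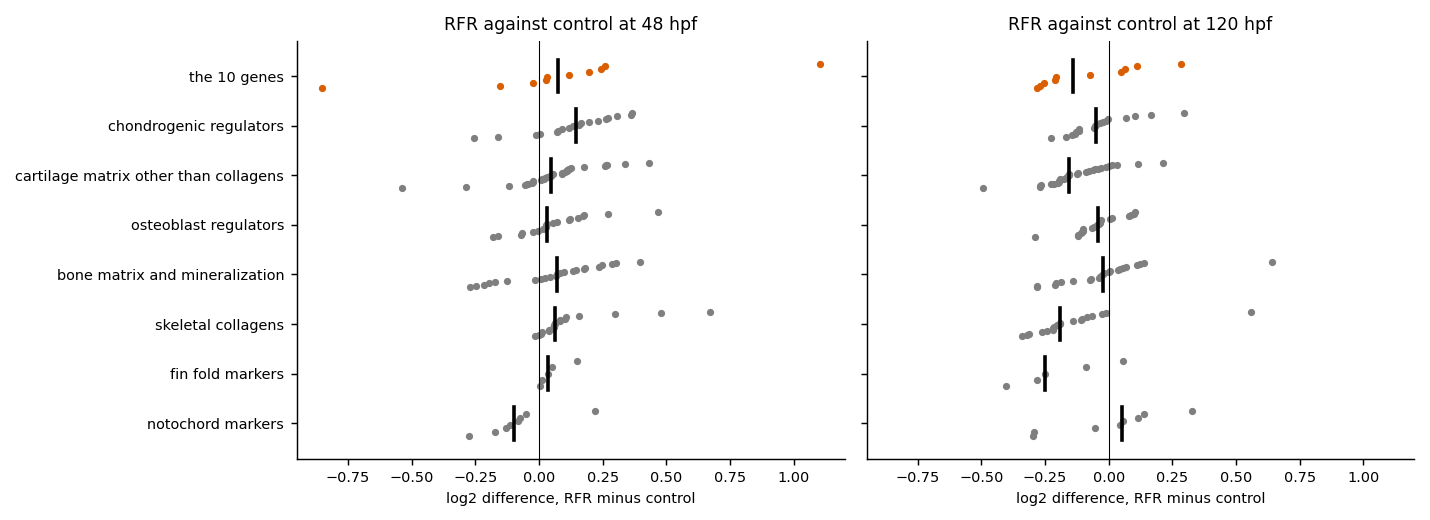
Log2 difference between RFR and control for each tested gene of the lists at 48 and 120 hpf; points are genes, spread within a row for legibility, and the upright bar is the list's median. At 120 hpf the cartilage matrix genes, the skeletal collagens and the fin fold markers lie mostly to the left of 0, and no gene shown passed the test.

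Between 48 and 120 hpf in controls 38.3% of all tested rows rose and 27.9% fell, and after RFR 36.1% and 29.2%, and the counts of the lists are to be read beside these shares. Of 18 regulators of chondrocytes 4 rose and 11 fell in controls, and the counts after RFR were the same. sox9b, the other sox9 copy of zebrafish, fell from 44.1 ± 6.99 to 14.9 ± 2.48 FPKM, by 1.54 log2 units (adjusted p = 2.98e-07, limma). ihha, a hedgehog ligand of maturing chondrocytes and bone, rose from 0.988 ± 0.198 to 4.43 ± 0.881 FPKM, and gdf5, a ligand of forming joints, rose from 0.51 ± 0.184 to 1.59 ± 0.214 FPKM. Of 20 regulators of osteoblasts 3 rose and 14 fell in controls, and 1 rose and 15 fell after RFR. In controls dlx4b, a homeobox factor, fell from 8.42 ± 1.08 to 2.62 ± 0.735 FPKM.

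Of 31 other cartilage matrix genes 14 rose and 10 fell in controls, beside 38.3% and 27.9% of all tested rows, and 13 rose and 10 fell after RFR. ucmaa, which encodes a vitamin K-dependent matrix protein of cartilage, was at 0.21, 0.53 and 0.33 FPKM in control replicates 1 to 3 at 48 hpf, was listed at 0 in replicate 4, and lay between 7.59 and 12.16 FPKM at 120 hpf. hapln1a, a link protein that ties proteoglycans to hyaluronan, fell from 75.8 ± 2.66 to 20.2 ± 1.90 FPKM. Aggrecan's other copy acanb rose by 1.66 log2 units and the matrilins matn3a and matn3b by 0.93 and 0.56, while matn4 fell by 0.31. These 4 relatives were picked for their kinship to acana and matn1 and not by the rule for named genes.

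Of 23 genes of bone matrix and mineralization 14 rose and 4 fell in controls, beside 38.3% and 27.9% of all tested rows, and the counts after RFR were again 14 and 4. scpp5, a member of the secretory calcium-binding phosphoprotein family to which spp1 belongs, was at 0.21, 0.42 and 0.14 FPKM in control replicates 1, 3 and 4 at 48 hpf and listed at 0 in replicate 2. At 120 hpf it lay between 40.71 and 45.66 FPKM in controls and between 29.14 and 47.21 FPKM after RFR. Its relative scpp9 was listed at 0 in 3 of 4 controls at 48 hpf and lay between 9.51 and 25.52 FPKM at 120 hpf. bglapl, the other osteocalcin gene of the table, rose by 2.54 log2 units, whereas bglap did not pass; bglapl too was picked for its kinship. tnc, which encodes tenascin C, fell from 70.6 ± 2.12 to 26.8 ± 3.21 FPKM. Of 19 skeletal collagens 5 rose and 5 fell in controls, where col10a1a rose by 3.18 log2 units and col9a1b fell by 1.52. After RFR 4 rose and 12 fell. The difference was negative for 13 of the 19 in each treatment. None of the 19 passed the test of a difference between the RFR effects at 48 and 120 hpf.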

How the data were processed

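Total RNA of whole zebrafish embryos was sequenced in 16 libraries on a DNBseq-G50 instrument with paired reads, per the labels. Expression values are FPKM, deposited by the authors for 32513 rows with 2 decimals. The build GRCz11 and the tools DESeq2, HISAT2 and Bowtie2 appear in the submitters' processing notes without versions, roles or an order. Which program made the FPKM values was not given in the sources used here. For each library the authors deposited the count of filtered reads and the count of detected genes, per the file headers. The rRNA, mapped and high-quality shares are in percent, per the file headers, and raw reads are in units of M (mega reads) as deposited.

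Because FPKM are not counts, count models were left out. limma 3.58.1 in R 4.3.3, with its mean-variance trend, was run on log2(FPKM + 0.5). The 23026 rows that reached 0.5 FPKM in 4 or more libraries entered 1 fit of the 4 groups, leaving 12 residual degrees of freedom. Tests were two-sided, with Benjamini-Hochberg adjustment over all tested rows. The fit was tested on simulated data, in which 200 rows that averaged 1 FPKM or more were changed. Equal numbers of them were changed 2-fold and by a smaller factor. Of these, 135 were called in the right direction for RFR against control at 48 hpf and 128 at 120 hpf. Of the 2-fold changes 85 and 80 were called, and of the smaller ones 50 and 48. Changes of this size can thus be missed. Rows that averaged less than 1 FPKM, such as runx2b, sp7 and bglap, were not changed, so the simulation does not give their recovery. The members and the 11 lists (162 entries, 157 matched by symbol, 3 by gene ID and 2 unmatched) were chosen with earlier results of these data known. From each list the rule named the 2 smallest p in each RFR comparison and, in control development, the 2 largest rises and the largest fall among rows that passed. A gene that this rule names is not reported here. For likeness it named the 3 rows with the highest Pearson r to matn1, sp7 and sparc. Alternatives were pseudocounts of 0.1 and 1, no filter, a filter at 1 FPKM, quantile normalization, median-ratio scaling, the groups compared alone, a replicate block, library weights, replicates 1 to 3 and leaving out each library. No library pair held identical values. Sequences were not used here.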

Additional observations from a re-analysis of the deposited data

Results flagged for a closer look

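In groups of 4 libraries, a value whose gap to its nearest neighbour took up most of the group's range was picked out by Dixon's test, which chance does for about 1 in 20 groups; 56 groups of values were tested. matn1 at 83.6 FPKM and spp1 at 23.63 FPKM stood apart in control 120 hpf replicate 1, the former below and the latter above the other 3 controls. The same library had an rRNA share of 3.2%, apart from the other 120 hpf controls. bglap at 1.22 FPKM stood apart in RFR 48 hpf replicate 4, above the other 3 RFR libraries.

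Raw reads, in units of M (mega reads), were 47.48 M in every library numbered 1 to 3, so that replicate 4 stood apart in each group, with 49.97 M in controls and 40.18 M after RFR at 48 hpf, and 50.16 and 48.05 M at 120 hpf. After filtering, 39603976 reads in RFR 48 hpf replicate 4 and 49232542 reads in control 120 hpf replicate 4 stood apart in the same way. The rRNA share of 0.24% in RFR 120 hpf replicate 4 did so as well. The part of these library values in the values of the 10 genes was not tested, other than by the fit on replicates 1 to 3.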

How the results depend on the processing

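Under every setting 0 of the 10 genes passed in the 3 comparisons of RFR. In development 5 to 6 passed in controls and 4 to 6 after RFR. Over all rows 14021 to 15986 passed in controls and 13731 to 15807 after RFR, of 20504 to 32513 tested. The genes behind these counts changed. In controls 5 rose and 1 fell in the fit used above, and 3 rose and 3 fell under quantile normalization. Of 78 results for single genes, 53 kept direction and call under every setting; of 1464 recomputed values, 1409 did, 10 lost a call, 8 gained one and 37 changed sign. The number of rows that passed at 48 hpf was 1, and was 3 with a pseudocount of 0.1, 2 without a filter, 0 with a filter at 1 FPKM or with the groups compared alone, 8 with library weights and 1 to 389 when a library was left out. At 120 hpf it was 0, and was 4 without a filter and 1 with a replicate block. For the difference between the stages it was 0, and was 1 with a pseudocount of 0.1, quantile normalization or replicates 1 to 3, and 0 to 1 when a library was left out. Differences that changed sign were small in the RFR comparisons: at 48 hpf sp7 was -0.045 (quantile normalization) and -0.0032 (median-ratio scaling) and sparc -0.0341 (median-ratio scaling); at 120 hpf bglap was 0.11 (replicates 1 to 3). For the difference between the stages acana was -0.0066 with a pseudocount of 0.1, and spp1 was 0.0377 with that pseudocount and 0.0333 with replicates 1 to 3. In development epyc was -0.0159 in controls with median-ratio scaling. Quantile normalization gave runx2b -0.13 in controls and -0.20 after RFR, and after RFR bglap -0.25 and sparc -0.17, with sparc at -0.0452 under median-ratio scaling.

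When a library was left out, values ran from -0.0984 to 0.0442 for cnmd, -0.0057 to 0.0634 for sp7 and -0.004 to 0.0508 for sparc at 48 hpf. At 120 hpf they ran from -0.0346 to 0.119 for sox9a, -0.246 to 0.0542 for matn1, -0.0194 to 0.121 for sp7 and -0.44 to 0.13 for bglap. For the difference between the stages they ran from -0.19 to 0.16 for acana, -0.0508 to 0.0898 for sp7 and -0.234 to 0.0337 for spp1. In development after RFR they ran from -0.12 to 0.0049 for sp7 and -0.0293 to 0.0708 for sparc. The cause of these changes was not tested.

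Replicate numbers did not pair the libraries throughout. Same-numbered control and RFR libraries correlated in their deviations at -0.111, -0.0432, 0.152 and 0.309 at 48 hpf. At 120 hpf they correlated at 0.180, 0.0578, 0.276 and 0.273, and not every library was most like that of its own number. Replicate 4, which had a raw read total of its own, was most like replicate 4 in both comparisons. Replicate 3, with the raw read total shared by replicates 1 to 3, was likewise most like replicate 3 in both. Across the stages replicate 4 was again most like replicate 4, at 0.174 in controls and 0.185 after RFR. For replicate 3 these values were -0.157 and -0.0627. Control replicate 4 at 48 hpf correlated at 0.1685 with control replicate 3 at 120 hpf. Whether replicate 4 formed a batch was not tested. A replicate block left 1 row at 48 hpf and 1 at 120 hpf, and 0 of the 10 genes in either. Values of runx2b, sp7, spp1 and bglap lie near or under 1 FPKM at 48 hpf, where depth limits their precision. The group means of runx2b, sp7 and bglap lie there at 120 hpf as well.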
